A study of Mus musculus with 4 samples.

Results

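The natural killer cell receptor genes Klra1, Klra3, Klra5, Klra7, Klra8, Klrd1, Klrk1, Klrc1, Klrb1c and Ncr1 were followed in a pair of lymph nodes that drain the pancreas. Every array probe whose transcript accession belongs to 1 of these 10 genes was taken. This gave 13 of the 41174 probes that are not controls, from 9 of the 10 genes, of 17178 genes with a symbol. No probe matched Klra1. The gastric lymph node, which is the left pancreatic node, was compared with the pancreatico-duodenal lymph node, which is the right one. Both nodes came from each of 4 female NOD mice aged 12 weeks, an inbred strain that develops autoimmune diabetes spontaneously. Each mouse had 1 two-colour Agilent array, on which the gastric node was labelled with red Cy5 and the pancreatico-duodenal node with green Cy3. Every ratio is given as log2 of gastric over pancreatico-duodenal node, and a positive value is a higher level on the gastric side. No array had the dyes exchanged, so dye and node effects cannot be told apart. RNA came from whole nodes, so a difference in the number of receptor-bearing cells and a difference in RNA per cell cannot be told apart.

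Natural killer cells decide whether to attack a target by weighing inhibitory against activating receptors. In the mouse the Klra genes encode the Ly49 receptors, most of which read classical MHC class I molecules, and inhibitory members carry a cytoplasmic motif that recruits phosphatases. Klrd1 encodes CD94, which pairs with the Klrc1 product NKG2A to read a non-classical MHC class I molecule and restrain the cell. Klrk1 encodes the activating receptor NKG2D, Klrb1c an activating member of the NKR-P1 family and Ncr1 the activating receptor NKp46. These receptors are also found on subsets of T cells and innate lymphoid cells, and Ly49 gene content differs between inbred strains.

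Of the 13 probes, 11 were kept for testing because 1 of the channels stood well above background on 3 or more of the 4 arrays. The 2 left out were a further probe of Klra5, above background on 1 of 4 arrays in the gastric channel and 0 of 4 in the other, and a further probe of Klrb1c, above background on 0 of 4 arrays in both. Most of the kept probes were dim, and 7 of them were above background on 4 of 4 arrays in both channels. Negative control spots had median signals of 51.8 to 54.2 in the gastric channel and 48.0 to 49.3 in the pancreatico-duodenal channel. Of all probes that are not controls, 67.1% to 71.5% were well above background in the gastric channel. In the pancreatico-duodenal channel 59.7% to 62.6% of them were, and no spot of these probes was saturated. All 10 B cell markers and 14 of 15 T cell markers of fixed lists were measured, as were 9 of 10 natural killer cell markers.

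Klra7 and Klrd1 were higher in the gastric node, by 1.64-fold and 1.22-fold, and no receptor probe was called lower. A probe was called at an adjusted p under 0.05 by limma, with Benjamini-Hochberg adjustment over all 27613 probes tested. Thus 2 of 11 kept receptor probes were called higher, beside 2.99% of all probes tested, and 0 of 11 were called lower, beside 4.93% of all probes tested (7.92% in either direction). With 11 probes these counts are small, and the 9 probes not called had mean log2 ratios between -0.07 and 0.17 and no unadjusted p under 0.05. Their 95% confidence intervals lay within -0.27 to 0.35. For probes near background in the pancreatico-duodenal channel these intervals depend on the processing. With processed signals, which were not passed through loess, the dim Klra3 and Klrc1 probes read 0.55 to 0.72 without a call. With loess but no background correction they read 0.13 to 0.18, also without a call. Which step made the difference was not tested. The median log2 ratio of the 11 probes was 0.04, against 0.02 for all probes kept.

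**Figure D1:**
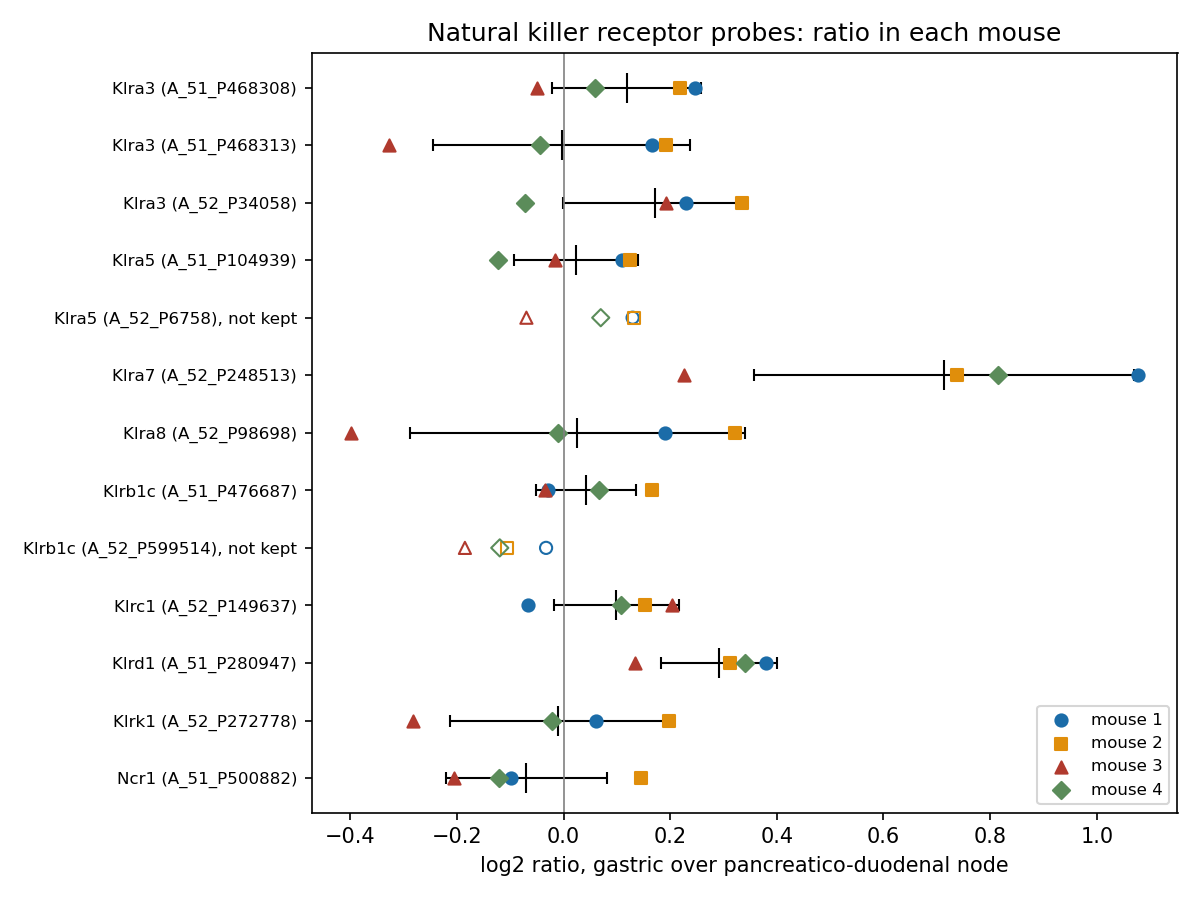
Log2 ratio of gastric over pancreatico-duodenal node (x axis) for each of the 13 receptor probes (rows), with 1 symbol per mouse, a vertical tick for the mean and bars for the SD of 4 mice, and open symbols for the 2 probes not kept. Klra7 and Klrd1 lie above 0 in every mouse, whereas each of the other kept probes has mice on both sides of 0.

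Klra7 encodes Ly49G, an inhibitory Ly49 receptor. Klra8, the gene of the activating receptor Ly49H, belongs to the same cluster. The node difference was called for Klra7 and not for Klra8, with no test between them. The upstream sequences of both genes are printed for this contrast, but their part in the ratios was not tested. They are the 250 bases before the annotated start in the RefSeq reference, build GRCm38.p6, on the minus strand at chr6:130233323-130233572 for Klra7 and chr6:130129899-130130148 for Klra8, which is not the NOD sequence. Capitals mark bases that differ or have no partner in the alignment of the pair.
Klra7: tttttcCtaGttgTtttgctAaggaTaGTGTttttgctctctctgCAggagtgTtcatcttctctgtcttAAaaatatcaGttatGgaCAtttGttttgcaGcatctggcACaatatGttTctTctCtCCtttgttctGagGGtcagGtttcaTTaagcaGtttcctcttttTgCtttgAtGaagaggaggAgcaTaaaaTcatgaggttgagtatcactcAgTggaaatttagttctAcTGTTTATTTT
Klra8: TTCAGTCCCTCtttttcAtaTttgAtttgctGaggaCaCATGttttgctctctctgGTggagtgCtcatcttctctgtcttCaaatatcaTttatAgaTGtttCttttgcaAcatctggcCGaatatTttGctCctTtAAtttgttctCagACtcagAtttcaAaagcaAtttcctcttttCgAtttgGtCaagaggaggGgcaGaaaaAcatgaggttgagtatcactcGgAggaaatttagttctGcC
The sequences were identical at 195 of 261 alignment columns, or 74.7%. Klra5 was 69.6% identical to Klra7 and 69.1% to Klra8, and the other receptor promoters shared 42.1% to 50.4% with Klra7. Whole 250-base windows were aligned end to end, so a shared stretch at another distance from the start can go unmatched. Klra3, at 43.8%, holds further along its window a stretch resembling the first bases of the Klra7 window. The table held promoters of 9 of the 10 genes, all but Klrd1. On either strand, the motif ACCACA, read by RUNX factors, was found in 5 of these 9 (Klra1, Klrb1c, Klrc1, Klrk1 and Ncr1), against 14.05% of 32851 promoters of the same length. The motif AGGAAG of ETS factors was found in 2 of 9 (Klra1 and Klrb1c), against 29.48% of all promoters. The T-box motif AGGTGTGA (1.12% of all) and the NFIL3 motif TTACATAA (0.82% of all) were in 0 of 9.

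Klra7 had normalized log2 intensities of 9.66, 9.86, 9.08 and 9.79 in the gastric node of mice 1 to 4, against 8.58, 9.12, 8.85 and 8.98 in the pancreatico-duodenal node. The gastric node was the higher one in each mouse, but the groups overlapped, since the gastric node of mouse 3 lay just below the pancreatico-duodenal node of mouse 2. The levels averaged 9.60 ± 0.36 in the gastric node and 8.88 ± 0.23 in the pancreatico-duodenal node (SD, n = 4 each). The log2 ratios were 1.08, 0.74, 0.23 and 0.82, with mouse 3 the lowest. Their mean was 0.71 ± 0.36 (SD, n = 4 mice), with a 95% interval of 0.38 to 1.04 and an adjusted p of 0.0394 by limma. The call was lost without mouse 2, 3 or 4, at mean ratios of 0.71, 0.88 and 0.68 and adjusted p values of 0.164, 0.0728 and 0.173. It was also lost with a trended, robust variance model (adjusted p = 0.124) and with the channels unpaired (adjusted p = 0.261), and median centring in place of loess gave 1.16, or 0.87 above the median of all probes.

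Klrd1, the gene of CD94, had the log2 intensities 11.20, 11.43, 11.41 and 11.61 in the gastric node of mice 1 to 4. In the pancreatico-duodenal node the same probe had 10.82, 11.12, 11.28 and 11.26. The gastric node was the higher one in every mouse, and mouse 1 had the lowest level in both nodes, so the groups overlapped. The levels averaged 11.41 ± 0.16 in the gastric node and 11.12 ± 0.21 in the pancreatico-duodenal node (SD, n = 4 each). The log2 ratios of 0.38, 0.31, 0.13 and 0.34 averaged 0.29 ± 0.11 (SD, n = 4), with a 95% interval of 0.15 to 0.43 and an adjusted p of 0.0419. The call was lost without mouse 2, 3 or 4, at 0.29, 0.34 and 0.28 with adjusted p values of 0.169, 0.0812 and 0.181, and with the variance trend (adjusted p = 0.106) or unpaired channels (adjusted p = 0.327). The processed signals of the scanner software gave 0.33 with an adjusted p of 0.0631, and median centring gave 0.85, or 0.56 above the median of all probes.

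Klrc1, whose product NKG2A pairs with CD94, was dim and was above background on 3 of 4 arrays in the gastric channel and 2 of 4 in the other. Its levels were 6.20, 6.42, 6.74 and 6.52 in the gastric node of mice 1 to 4, against 6.27, 6.27, 6.53 and 6.41 in the pancreatico-duodenal node. Mouse 3 had the highest level in both nodes, and the groups overlapped. The ratio of 0.10 ± 0.12 (SD, n = 4) was not called (adjusted p = 0.304), and processed signals gave 0.55, again without a call (adjusted p = 0.0936). Klrk1, the gene of NKG2D, had levels of 6.68, 6.87, 6.51 and 6.81 in the gastric node and 6.62, 6.68, 6.79 and 6.83 in the pancreatico-duodenal node of mice 1 to 4. The node that was higher changed from mouse to mouse, and the ratio of -0.01 ± 0.20 was not called (95% interval -0.22 to 0.19, adjusted p = 0.941). Whether the ratio of Klrd1 differed from that of Klrc1 or of Klrk1 was not tested.

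**Figure D2:**
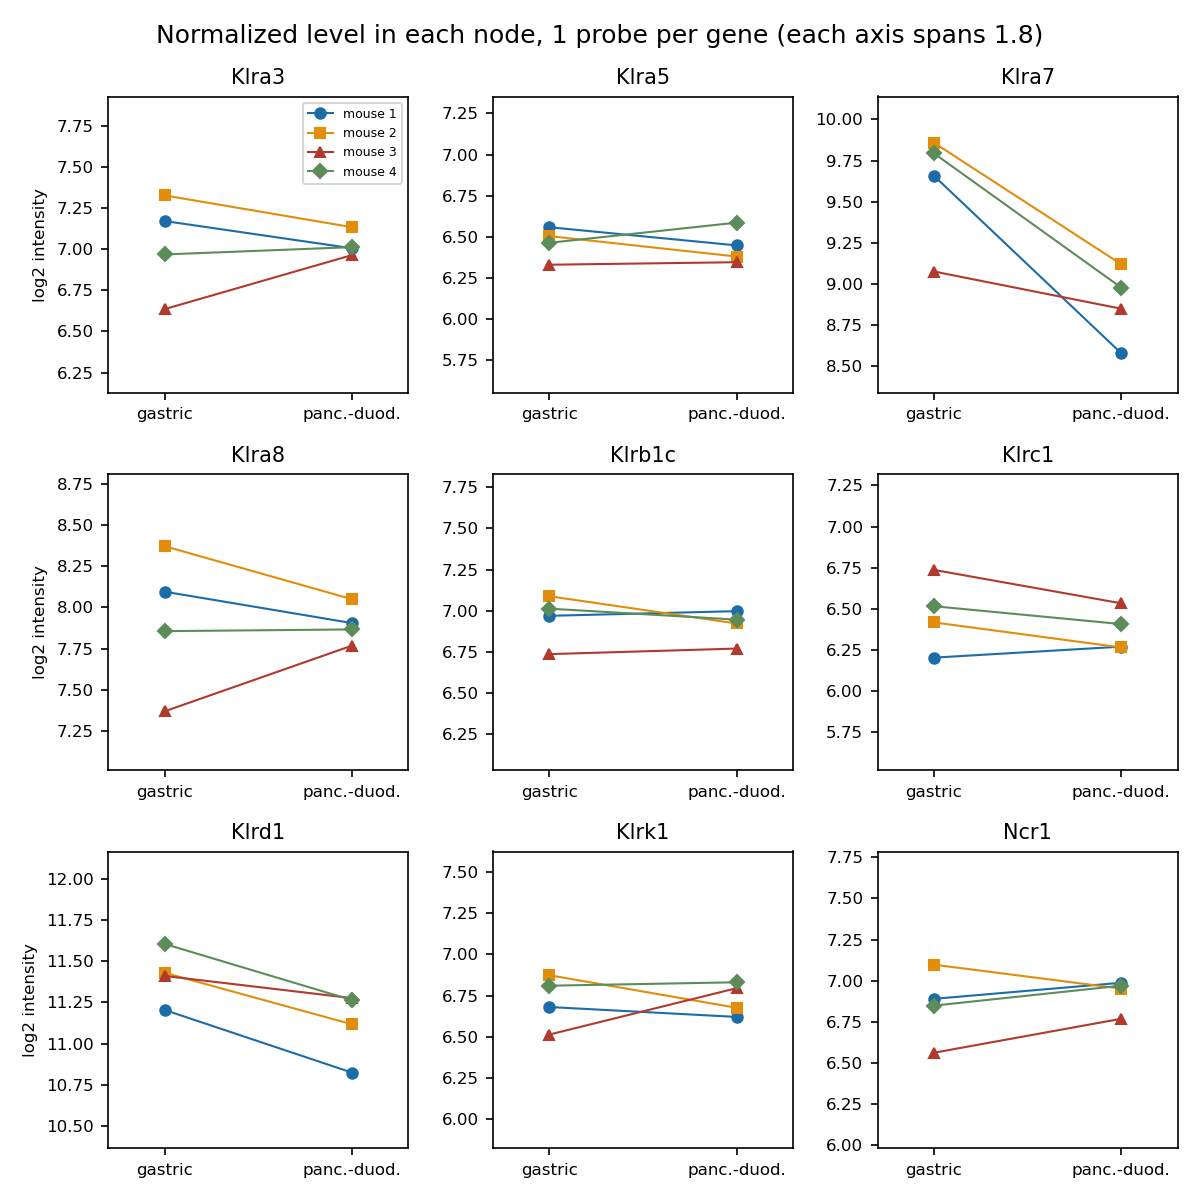
Normalized log2 intensity in the gastric node (left) and the pancreatico-duodenal node (right) for the brightest kept probe of each of the 9 receptor genes, with a line joining both nodes of each mouse and every axis spanning the same range. All 4 lines slope down towards the pancreatico-duodenal node for Klra7 and Klrd1, and mouse 3 has the lowest gastric level of Klra3, Klra5, Klra7, Klra8, Klrb1c, Klrk1 and Ncr1.

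Klra8 had levels of 8.10, 8.37, 7.37 and 7.86 in the gastric node of mice 1 to 4, against 7.90, 8.05, 7.77 and 7.87 in the pancreatico-duodenal node. Mice 1 and 2 were higher in the gastric node, mouse 3 was lower there and mouse 4 was nearly level. The ratios of 0.19, 0.32, -0.40 and -0.01 averaged 0.03 ± 0.31 (SD, n = 4; 95% interval -0.27 to 0.32, adjusted p = 0.900). The levels spread over an SD of 0.43 in the gastric node and 0.12 in the pancreatico-duodenal node, so most of the spread lay on the gastric side.

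Klra3, the gene of the inhibitory receptor Ly49C, was read by 3 kept probes. The brightest, A_51_P468313, had levels of 7.17, 7.33, 6.64 and 6.97 in the gastric node of mice 1 to 4, against 7.0, 7.13, 6.96 and 7.01 in the pancreatico-duodenal node. It gave 0.17, 0.19, -0.33 and -0.04, a mean of -0.0035 ± 0.24 (adjusted p = 0.984). A_51_P468308 was above background on 3 of 4 arrays in the gastric channel and on 0 of 4 in the pancreatico-duodenal channel. Its ratio of 0.12 ± 0.14 was not called (95% interval -0.04 to 0.28, adjusted p = 0.269), and mouse 3 was at -0.05. As a bound, its pancreatico-duodenal level was raised to the lowest level of any probe well above background in that channel. The gastric node was then 1.01-fold higher, which is nearly level. A_52_P34058, above background on 4 and 1 arrays in the gastric and the pancreatico-duodenal channel, gave 0.17 ± 0.17 (adjusted p = 0.184). The 3 probes thus ran from -0.0035 to 0.17, and none was called. With processed signals both dim probes read higher, 0.72 and 0.64, again without a call.

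Klra5, the gene of the inhibitory receptor Ly49E, had levels of 6.56, 6.50, 6.33 and 6.46 in the gastric node, against 6.45, 6.38, 6.35 and 6.59 in the pancreatico-duodenal node of mice 1 to 4. Its kept probe was above background on 3 of 4 arrays in the pancreatico-duodenal channel, and its ratio of 0.02 ± 0.12 was not called (adjusted p = 0.803). The probe left out read 0.13, 0.13, -0.07 and 0.07 in mice 1 to 4, and no fold is given for it.

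Other Ly49 genes measured by the array placed Klra7 beside Klra16, a gene outside the chosen members, named here only after its values had been seen. One Klra16 probe, A_51_P434836, gave 1.15, 0.83, 0.46 and 0.88 in mice 1 to 4, a mean of 0.83 ± 0.28 (SD, n = 4; adjusted p = 0.0234), and was called higher. The other, A_52_P662054, gave 1.17, 0.64, 0.15 and 0.65, a mean of 0.65 ± 0.42, and was not called (adjusted p = 0.0578). It passed under 5 of 17 alternatives, among them a common spread of the arrays (adjusted p = 0.0384) and the loss of mouse 1 (adjusted p = 0.0450), whereas the first probe lost its call without mouse 2, 3 or 4 (adjusted p values of 0.133, 0.0696 and 0.142). The Klra7 probe and these 2 had mean ratios of 0.65 to 0.83, whereas the other 9 Klra probes kept, from 7 genes, had means of -0.06 to 0.17. With processed signals this gap closed, since the dim Klra3 probes read 0.72 and 0.64, against 0.71 for Klra16 probe A_52_P662054 and 0.83 for Klra7. With loess the sets did not overlap in mouse 1 (1.08 to 1.17 against 0.07 to 0.25), in mouse 2 (0.64 to 0.83 against 0.06 to 0.33) or in mouse 4 (0.65 to 0.88 against -0.22 to 0.13). In mouse 3 they did, at 0.15 to 0.46 against -0.47 to 0.19. The sets were formed from these values, so no test was made between them.

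The brightest Klra3 probe ran close to the probes of Klra6, Klra8 and Klra9, with root mean square differences of 0.0465, 0.0765 and 0.0815 over the log2 ratios of the 4 mice. Klra7 and Klra16 probe A_52_P662054 differed by 0.112 on this measure. Over all 12 Klra probes kept, mouse 3 had the lowest ratio on 10, and the median ratio was 0.025. Ly49 genes are close paralogs, and the strain behind the probe sequences is not given in the sources used here. How far these probes read each other's transcripts, or strain variants of them, was not tested, because probe sequences were not used here.

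**Figure D3:**
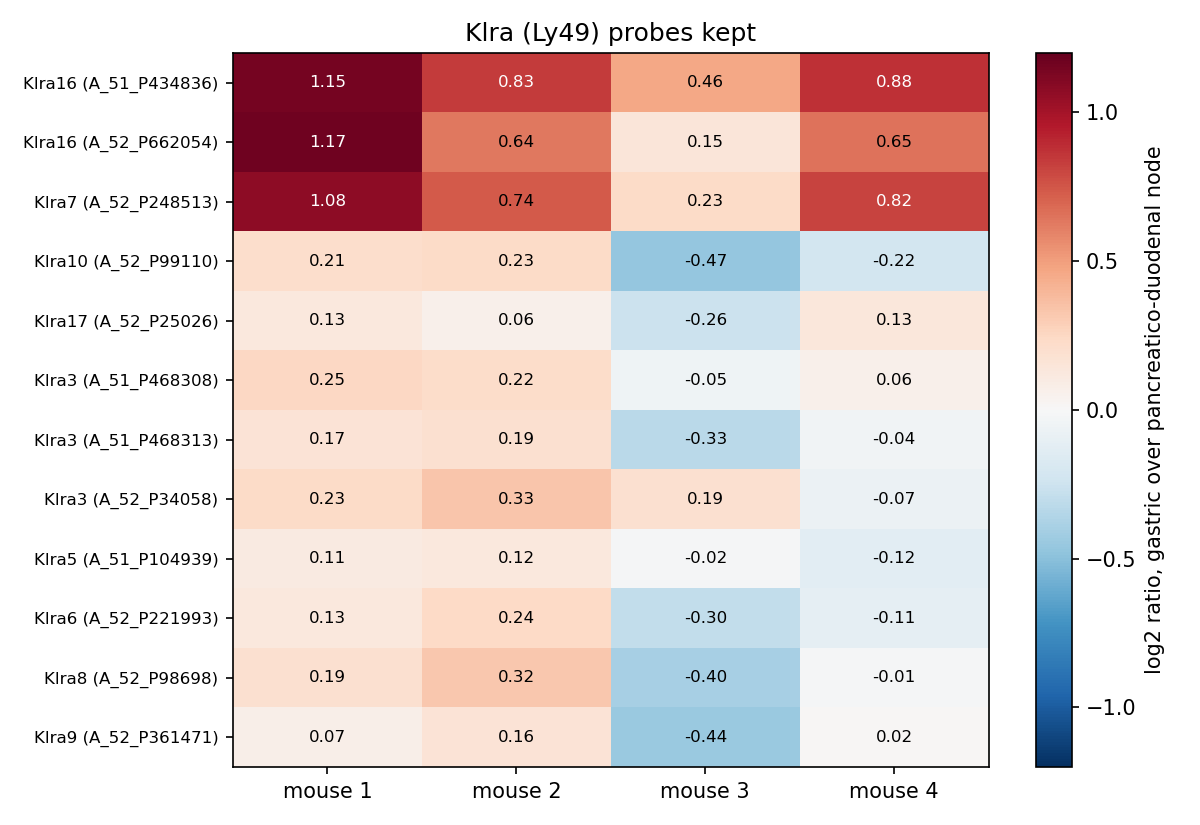
Log2 ratio of gastric over pancreatico-duodenal node (colour and printed value) for each kept Klra probe (rows) in each mouse (columns), with red for higher and blue for lower in the gastric node. The Klra16 and Klra7 probes read 0.15 to 1.17 in all 4 mice, and the other probes read -0.47 to 0.33.

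Ncr1, which encodes the natural killer receptor NKp46, had levels of 6.89, 7.10, 6.56 and 6.85 in the gastric node of mice 1 to 4, against 6.99, 6.95, 6.77 and 6.97 in the pancreatico-duodenal node. The gastric node was the lower one in 3 of 4 mice, and mouse 2 went the other way. The ratio of -0.07 ± 0.15 was not called (SD, n = 4; 95% interval -0.24 to 0.10, adjusted p = 0.517), and processed signals gave -0.33 (adjusted p = 0.320). Klrb1c had levels of 6.97, 7.09, 6.74 and 7.01 in the gastric node, against 7.0, 6.92, 6.77 and 6.95 in the pancreatico-duodenal node of mice 1 to 4. Mice 2 and 4 were slightly higher in the gastric node and mice 1 and 3 slightly lower. Its ratio of 0.04 ± 0.09 was not called (95% interval -0.09 to 0.17, adjusted p = 0.615), and its second probe, below background throughout, gives no fold.

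For most receptor probes the same mice gave the extreme ratios. Mouse 3 had the lowest ratio on 8 of the 11 kept probes, whereas it was lowest on 30.3% of all probes kept. Mouse 2 had the highest on 7 of 11, against 18.1% of all probes. The exceptions included Klrc1, with mouse 3 highest and mouse 1 lowest, and Klra5 and Klra3 probe A_52_P34058, with mouse 4 lowest. The 6 Klra probes among them had a median ratio of 0.21, 0.27, -0.03 and -0.03 in mice 1 to 4, and the other 5 had -0.03, 0.17, -0.03 and 0.07. Other tissue markers also differed by mouse. The 15 exocrine pancreas genes measured had a median ratio of -4.92 in mouse 3, while mice 1, 2 and 4 had -0.29, 0.23 and 0.88. The 9 adipocyte genes had medians of 1.72, -1.93, 0.50 and -1.67. Without mouse 3, limma called 0 of 11 receptor probes (3 had an unadjusted p under 0.05). It then called only 5 of all 27613 probes (7365 had an unadjusted p under 0.05). The part of exocrine and adipose tissue in the receptor ratios was not tested.

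Of 9 natural killer cell markers measured, 1 was called higher and none lower, but 4 of them, Klrb1c, Klrd1, Klrk1 and Ncr1, are receptor genes described above, and the called one is Klrd1. Of the 5 others limma called 0, with 1 at an unadjusted p under 0.05. Their median ratio was -0.20, 0.18, 0.26 and 0.27 in mice 1 to 4, so mouse 3 was not the lowest there. Eomes, a transcription factor gene of the lineage, was at 0.29 ± 0.29, the granule protein gene Nkg7 at 0.11 ± 0.21, the perforin gene Prf1 at 0.01 ± 0.29 and the granzyme gene Gzma at -0.16 ± 0.39 (SD, n = 4), and none of these 4 was called. Of 14 T cell markers 1 was called higher, the CD3 chain gene Cd3g, at a list median of 0.16. None of the 10 B cell markers or the 6 group 3 innate lymphoid markers was called by limma (2 in each list had an unadjusted p under 0.05). Of 13 macrophage and monocyte markers 6 were called lower, at a list median of -0.74, and of 9 dendritic cell markers 4 were called lower. Each marker was read with 1 probe per gene. Of all 13409 genes read in this way, 2.42% were called higher and 6.38% lower. The part of these cell types in the receptor ratios was not tested.

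The genes around the receptors were read with 1 probe per gene, the brightest kept. On this basis 2.42% of the 13409 genes tested were called higher and 6.38% lower, and the median ratio of all of them was 0.004. Among 17 other natural killer receptors, 1 was called higher and 1 lower, at a median of -0.04. Cd226, which encodes the activating receptor DNAM-1, was at 0.34 ± 0.17 (adjusted p = 0.0495), with further probes at 0.33, 0.27 and 0.14 that were not called, and its call was lost under 11 of 17 alternatives. Fcgr3, the gene of an activating Fc gamma receptor that macrophages also carry, was at -0.33 ± 0.07 (adjusted p = 0.0267), but turned sign under median centring, where it lay at -0.10 relative to all probes. A further Fcgr3 probe read -0.10 (adjusted p = 0.425), and the mean of both was not called (-0.22, adjusted p = 0.0639). The inhibitory receptor gene Klrg1 was at -0.39 ± 0.38 and Klrb1a at -0.17 ± 0.11, and neither was called.

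Of 17 adaptors and proximal signalling genes 2 were called higher and 1 lower, at a median of 0.04. Sh2d1a, which encodes the adaptor SAP of the SLAM family receptors in T and natural killer cells, had ratios of 0.27, 0.65, 0.73 and 0.67 in mice 1 to 4. It averaged 0.58 ± 0.21 (adjusted p = 0.0269), with mouse 1 below the other three. Ptpn11, which encodes the phosphatase SHP-2, was at 0.28 ± 0.05 (adjusted p = 0.0305), while its further probes read 0.13 and 0.0048 and were not called. The mean of the Ptpn11 probes was not called (0.14, adjusted p = 0.150), and the call was lost under 8 of 17 alternatives. Tyrobp, which encodes DAP12, the signalling partner of activating Ly49 receptors and also a myeloid adaptor, was at -0.36 ± 0.11 (adjusted p = 0.0292), but turned sign under median centring, where it lay at -0.05 relative to all probes. Hcst, the gene of the NKG2D partner DAP10, was at 0.23 ± 0.23 and was not called (adjusted p = 0.156).

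None of 10 receptor ligand genes was called on its brightest probe by limma, and 3 had an unadjusted p under 0.05. The MHC class I gene H2-K1 was at 0.08 ± 0.05 on that probe (adjusted p = 0.298), but further probes read -0.39 (adjusted p = 0.0269) and -0.24, so the probes of this gene disagree. H2-D1, another MHC class I gene, was at -0.32 ± 0.17 (adjusted p = 0.057) with a further probe at -0.26 (adjusted p = 0.0486). Both the sign and the call of its brightest probe depended on median centring, which gave 0.50, or 0.20 relative to all probes. MHC class I genes are close paralogs of each other, and cross-reading was not tested.

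Of 20 regulators of natural killer and innate lymphoid cells 2 were called higher and 1 lower, at a median of 0.06. Tox, a nuclear factor gene needed for natural killer cell development, was at 0.36 ± 0.13 (adjusted p = 0.0349), and the transcription factor gene Ets1 was at 0.27 ± 0.10 (adjusted p = 0.0442). Both are also expressed in T cells. Further probes, none called, read 0.16 for Tox and 0.05 and 0.22 for Ets1, and the mean of the Ets1 probes was not called (0.18, adjusted p = 0.0573). Il2rg, the gene of the common cytokine receptor gamma chain, was at -0.29 ± 0.13 (adjusted p = 0.0485), with its sign turned by median centring, where it lay at -0.02 relative to all probes. Of 17 cytotoxic effectors 1 was called higher and none lower, at a median of 0.01. This was Ifng, the interferon gamma gene, at 0.75 ± 0.28 (adjusted p = 0.0262), with a further probe at 0.51 (adjusted p = 0.0296). None of 13 homing receptors was called by limma, at a median of 0.11, and 6 had an unadjusted p under 0.05. The 2 brightest of the 13, Spn (CD43) and Ccr7, were at 0.18 ± 0.22 and -0.31 ± 0.21, with a further Spn probe at -0.09. The sign of Ccr7 turned with median centring, where it lay at 0.04 relative to all probes. Over the 6 lists, 6 genes were called higher and 3 lower, and no call remained without mouse 2, 3 or 4 in turn, while without mouse 1 there were 13 higher. Of all 27613 probes, limma called 0, 5 and 3 without mouse 2, 3 and 4, and 3051 without mouse 1.

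**Figure D4:**
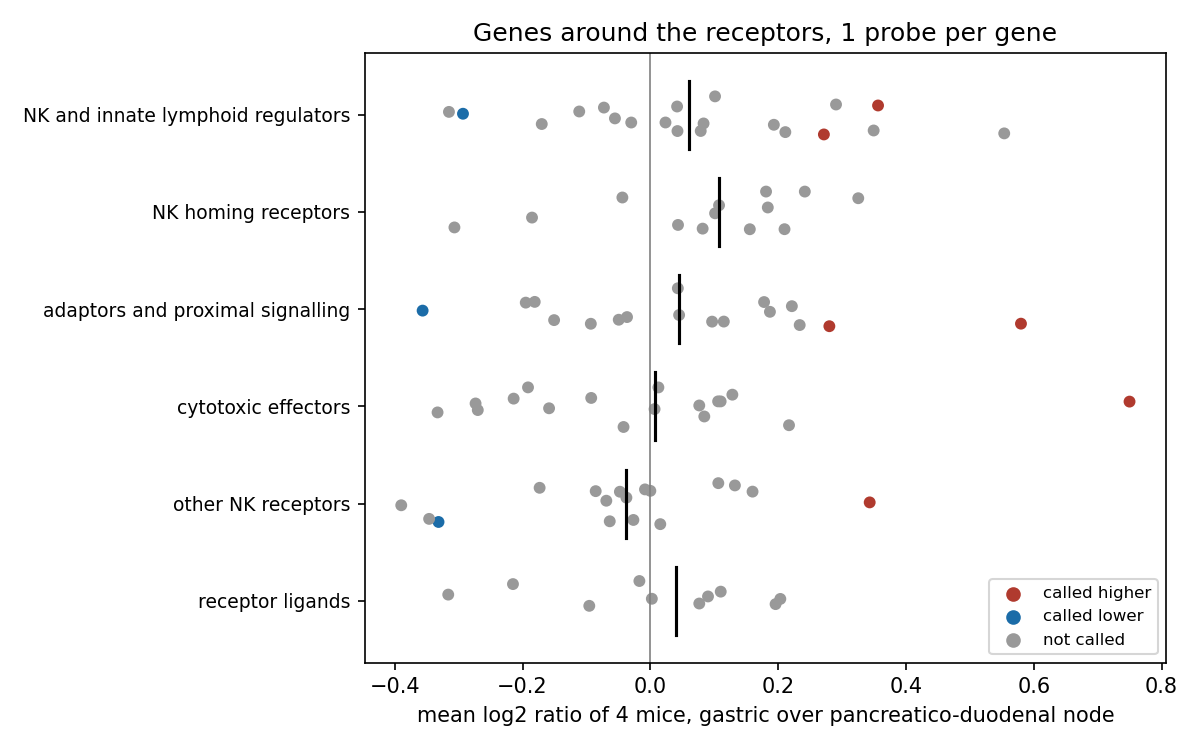
Mean log2 ratio of gastric over pancreatico-duodenal node over 4 mice (x axis) for each measured gene of 6 lists around the receptors (rows), with a black tick at the median of each list and colour for the call. The medians lie between -0.04 and 0.11, and the 6 genes called higher include Ifng at 0.75 and Sh2d1a at 0.58.

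In the gene order of RefSeq, 9 of the 10 receptor genes lie in a stretch of 69 genes on chromosome 6, the natural killer gene complex, and Ncr1 lies on chromosome 7. Of the genes of this stretch outside the members, 15 were tested. Among them 0 were called higher and 2 lower, beside 2.42% higher and 6.38% lower of all genes tested. Their ratios ran from -0.80 to 0.27, with a median of -7.8e-05. Clec1b, which encodes the C-type lectin receptor CLEC-2 of platelets and some myeloid cells, was at -0.80 ± 0.13 (adjusted p = 0.0176), and processed signals gave -1.57. Gabarapl1, an autophagy gene, was at -0.44 ± 0.20 (adjusted p = 0.0391). Its sign was turned by median centring, where it lay at -0.11 relative to all probes. The Klra16 gene named above is not placed in this stretch by that table.

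The mean profile of the 9 receptor genes, with the brightest kept probe of each, was 0.20, 0.26, -0.08 and 0.11 in mice 1 to 4. The 5 genes nearest to it, by root mean square difference over the 4 mice among 13400 other genes, were Clec4a3 at 0.0349, Nmi at 0.0371, Ifnar2 at 0.0371, Dagla at 0.0376 and Rdh5 at 0.0379. None of these was called, and 307 genes lay within 0.1 of the profile, so the nearest are not set apart from many others.

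**Figure D5:**
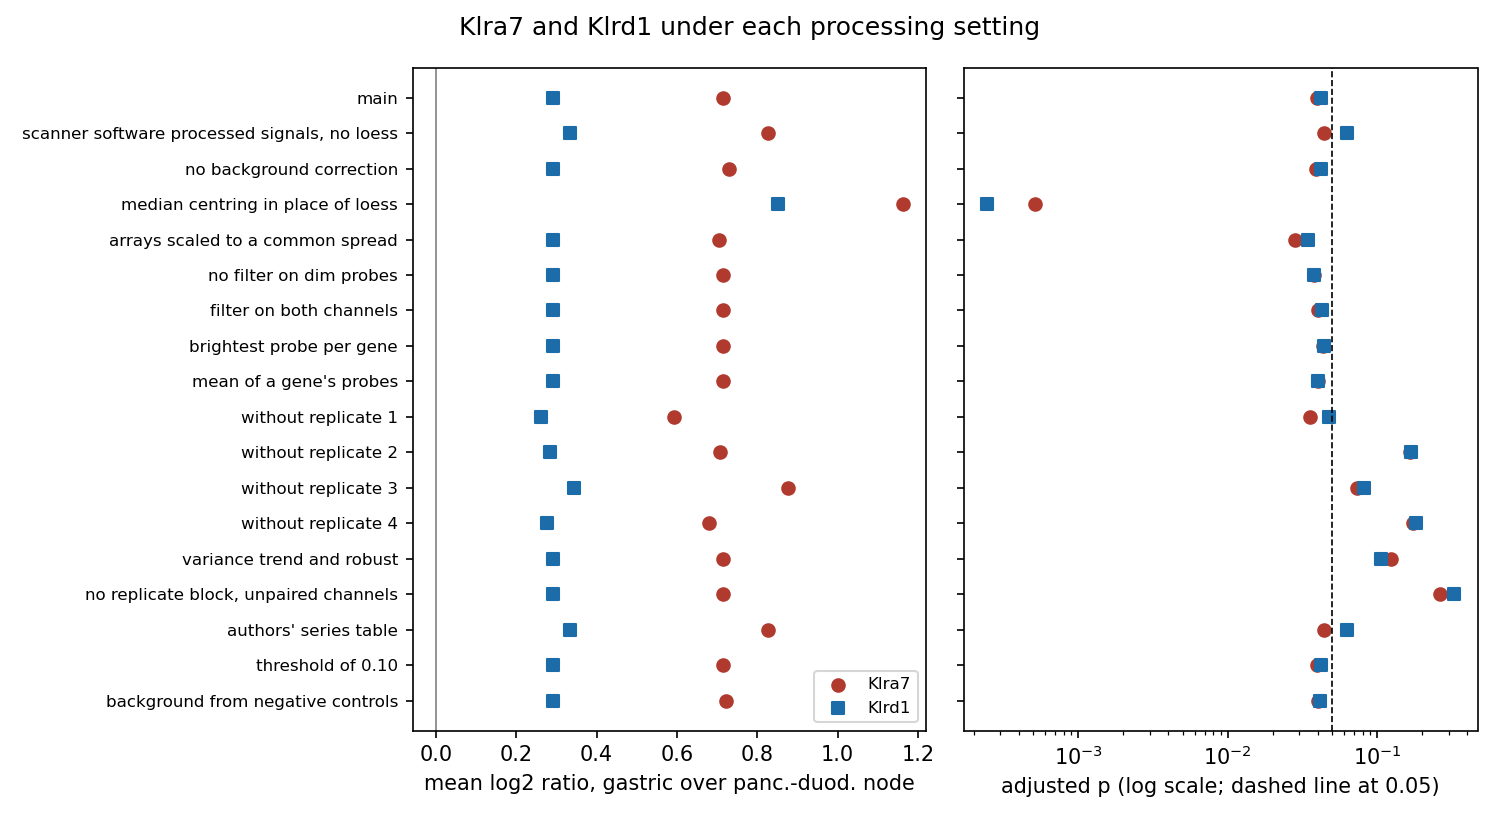
Mean log2 ratio (left) and adjusted p on a log axis (right) of Klra7 and Klrd1 under the settings named in the rows, with a dashed line at the threshold of 0.05. The ratios stay above 0 throughout, at 0.59 to 1.16 for Klra7 and 0.26 to 0.85 for Klrd1, while the adjusted p of both lies above the line without replicate 2, 3 or 4, with the variance trend and without the replicate block.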

How the data were processed

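RNA of whole gastric and pancreatico-duodenal lymph nodes was amplified, labelled and hybridised, per the labels, with both nodes of a mouse on the same array. The 4 arrays shared 1 slide and 1 scan, per the file headers. The scanner files that the authors deposited hold mean, background and processed intensity values and a log10 ratio for each of 45018 spots, made with Agilent Feature Extraction 10.2.1.3 per the file headers. The log10 ratio was not used. The authors' deposited series table holds log2 values, which equalled the log2 ratio of processed Cy5 over Cy3 signals to within 5.1e-05, and their array medians were -0.15, -0.06, -0.03 and -0.03. This settled their scale and direction.

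Mean intensities were background corrected with normexp (offset 50) and normalized by loess within each array in limma 3.58.1 (R 4.3.3, data.table of version 1.17.8). The ratios had no step between arrays. The log2 levels given for single nodes had a further step, the Aquantile normalization between arrays. It brings average intensities to a common distribution and leaves the ratios unchanged. Control spots and spots flagged as outliers had weight 0. Spots of a probe were averaged. A probe was kept if either channel stood well above background on 3 or more of the 4 arrays. lmFit and eBayes tested whether the mean log2 ratio over mice differed from 0, adjusted by Benjamini-Hochberg over all 27613 kept probes. Replication rests on the 4 arrays, and eBayes draws the variance of each probe towards that of all kept probes.

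Probes were named by accession through a RefSeq list of GRCm38.p6, used for names, gene order and promoter sequence. It gave a symbol to 24844 probes and none to 16330. The array annotation uses another build, so no probe coordinates are given. Each log ratio compares nodes of the same mouse, so the main test is paired by animal. The members, lists and tests were chosen with earlier results of these data known. Every probe of a member is named. From each list up to 4 called genes are named, or the 2 brightest where none was called. The neighbours in the complex (up to 4 called) and the 5 nearest patterns follow fixed rules, and other genes were named after their values were seen. Of the other marker lists, neutrophil genes had 1 higher of 5 measured and erythroid genes 1 lower of 5. Of all genes tested, 2.42% were called higher and 6.38% lower. The steps were tested on simulated data. Alternatives covered background correction, normalization, the filter, how probes of a gene are combined, leaving out single mice, the series table, the threshold, the pairing and the variance model.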

Additional observations from a re-analysis of the deposited data

Results flagged for a closer look

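Sh2d1a, the gene of the adaptor SAP, had a log2 ratio of 0.27 in mouse 1, against 0.65, 0.73 and 0.67 in mice 2, 3 and 4. Mouse 1 lay far from the other three, by Dixon's test for a group of 4. This was 1 of 29 results tested in this way, and chance alone gives such a gap in about 5% of groups.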

How the results depend on the processing

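The median log2 ratio of the receptor probes moved by less than the spread between mice, and 0 receptor probes were called lower, under all alternatives run. With median centring it was -0.02, which is -0.31 relative to the median of all probes. Of 27613 probes, 826 were higher and 1360 lower. These counts became 494 and 740 with the scanner software's processed signals, 497 and 743 with the authors' deposited series table, and 16108 and 2869 with median centring, where the median of all probes was 0.29. Scaling the arrays to a common spread gave 1314 higher, and a threshold of 0.10 gave 2503 and 2777. The variance trend left 0 and 0 (8518 at an unadjusted p under 0.05 by limma). Without the replicate block, which unpairs the channels, 1 probe was higher and 6 lower. With 1 mouse left out, 0 (without mouse 2, 3 or 4) to 1126 (without mouse 1) were higher and 0 to 1925 lower. The processed signals and the series table each left 1 receptor call, Klra7, and the variance trend, the unpaired channels and the loss of mouse 2, 3 or 4 left 0.

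Over the 6 lists around the receptors, 6 genes were higher and 3 lower. They became 1 and 1 with processed signals and with the series table, 0 and 0 with the variance trend and without the replicate block, and 10 and 12 at a threshold of 0.10. Median centring gave 70 higher, and the mean of a gene's probes 3. Leaving out 1 mouse gave 0 to 13 higher and 0 to 4 lower.

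Some ratios changed sign. With processed signals Klra5 was at -0.0345 and H2-K1 at -0.0188, and with the series table these were also -0.0345 and -0.0188. The brightest Klra3 probe was at 0.0017 with no background correction and at 0.0057 with background taken from negative control spots, an alternative chosen after seeing the data. With a mean of each gene's probes Klra3 was at 0.10 and H2-K1 at -0.19. Leaving out 1 mouse put Klra5 between -0.0092 and 0.073, Klra8 between -0.073 and 0.17, Klra3 between -0.069 and 0.10 and Klrk1 between -0.081 and 0.079. Median centring put the Klra3 probes at -0.15, 0.070 and -0.017, Klra5 at -0.12, Klrc1 at -0.086, Fcgr3 at 0.19, Tyrobp at 0.24, H2-D1 at 0.50, Il2rg at 0.27, Ccr7 at 0.33 and Gabarapl1 at 0.19. Under median centring the median of all probes was 0.29. Relative to it, the Klra3 probes lay at -0.44, -0.22 and -0.31, Klra5 at -0.42 and Klrc1 at -0.38. Fcgr3 lay at -0.10, Tyrobp at -0.05, Il2rg at -0.02 and Gabarapl1 at -0.11, while H2-D1 lay at 0.20 and Ccr7 at 0.04. The cause of the sign changes was not tested. Of the 11 kept receptor probes 4 were not above background on every array in both channels. Beside the Klra3 probes at 0.72 and 0.64, processed signals put Klrc1 at 0.55, Ncr1 at -0.33 and Clec1b at -1.57, and the series table gave the same values.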
